A study of Mus musculus with 6 samples.

Results

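Hedgehog signalling and the growth factor Fgf15 were followed through maturation of the mouse retina, in 8 genes picked by symbol out of the 30042 in the deposited table. They are the ligand Shh, its receptor Ptch1, the transducer Smo, the transcription factors Gli1, Gli2 and Gli3, the ligand-binding inhibitor Hhip, and Fgf15. All 8 had a row and passed the filter of at least 1 RPKM (reads scaled to gene length and library size) at some age. The samples were 6 libraries of whole retina from wild-type mice of the strain labelled 129/Sv; C57/BL6J. Of these, 1 came from embryos at day 16.5 (E16.5) and the others from mice of postnatal day 1, 3, 7, 14 or 28 (P1 to P28). Where 6 values are given in age order below, they run from E16.5 to P28. The labels name no treatment and give neither sex nor the number of mice per library. The series title concerns deiodinase-deficient mice, but every library here is wild type.

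Hedgehog ligands are secreted proteins that bind Patched receptors and thereby release Smoothened, which lets Gli transcription factors switch on their targets. Gli1 is mainly an activator and is itself a target, Gli2 acts largely as an activator, and Gli3 largely as a repressor when no ligand is present. Ptch1 and Hhip are also induced by the pathway and damp it by holding ligand. In the mouse retina, Shh from ganglion cells acts on dividing progenitors. Fgf15, the mouse counterpart of human FGF19, is made by retinal progenitors and neural tube cells and later in life serves as a gut hormone of bile acid control.

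Depth, estimated from the spacing of low values, lay between 12743757 reads (P1) and 28784629 reads (P14). Photoreceptor markers, of which 4 of 4 rose, summed to 87.0 RPKM at E16.5 and 7963 at P28, with the rod transducin Gnat1 at 3046 RPKM at P28. The lens list summed to 25.2 RPKM in the embryo, 0.830 at P3 and 25.7 at P28. Most of the embryo and P28 sums was Cryaa, a lens crystallin (23.7 RPKM in the embryo, listed at 0 at P3 and 20.7 at P28). The crystallins Crygs and Crybb2 were at 3.12 and 0.968 RPKM at P28 and at or below 0.171 and 0.0345 before. Mip, a lens membrane channel, was highest at P1 (1.10) and Bfsp2 at P14 (0.602). No marker of the 9 cell type lists was at 0 in every library. Because each age is 1 library, ages could not be tested against each other, and the test was a straight line over age order. Its p-values measure the scatter of libraries around that line, not that between retinas of 1 age. In whole tissue, fewer cells of a type and less RNA per cell cannot be told apart.

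Of the 8 genes, 6 fell with age, namely Smo, Gli1, Gli2, Gli3, Hhip and Fgf15, while Ptch1 and Shh did not pass the test. Over all 15272 tested genes 29.9% fell and 15.2% rose (4571 and 2326 genes). With libraries brought to a common total without the 50 highest genes, 2668 fell and 3293 rose, so this background depends on the scaling, while the same count of 6 among the 8 fell. None of the 8 rose, by limma, by an unadjusted p under 0.05 (0 genes) or by ordinary least squares (0 genes). The median slope of the 8 was -0.66 log2 units per age step, against -0.06 over all tested genes. Slopes are on the log2(RPKM + 1) scale, which understates changes of values below 1.

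**Figure D1:**
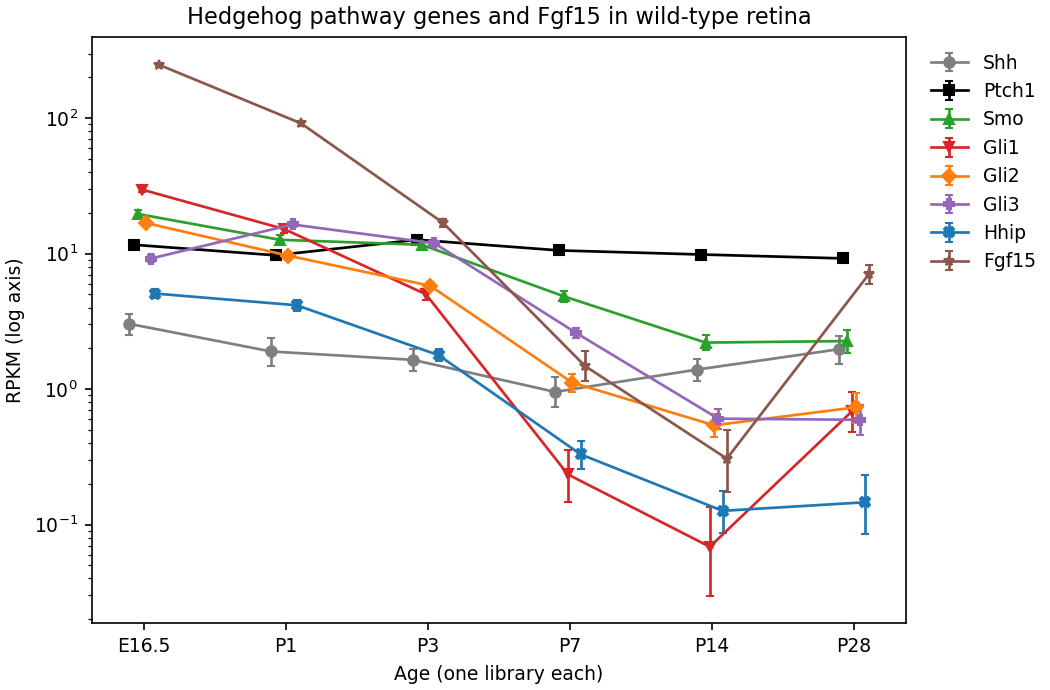
RPKM (log axis) of the 8 genes at each of 6 ages, 1 library per point; bars are 95% Poisson intervals of the estimated reads and cover counting error only. Ptch1 stays between 9.22 and 12.7 RPKM, Gli1, Gli2, Gli3, Hhip and Fgf15 drop by more than an order of magnitude up to P14, and Fgf15 and Gli1 are higher at P28 than at P14.

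Shh (gene ID 20423), the ligand, was low throughout and was lowest at P7. In age order it stood at 3.03, 1.89, 1.64, 0.953, 1.39 and 1.97 RPKM, with the highest value in the embryo. The age slope was -0.10 ± 0.07 (SE, limma, adjusted p = 0.269), with a 95% interval of -0.26 to 0.06. It moved to -0.007 without E16.5 (adjusted p = 0.952) and to -0.21 without P28 (adjusted p = 0.0654), so single libraries decide its size. At P7 it was 3.18 times lower than at E16.5 (95% counting interval 2.35 to 4.41, from an estimated 63 against 125 reads). From P14 to P28 it differed by 1.41 times (1.04 to 1.92).

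Ganglion cell markers, of which 5 of 8 fell, summed in age order to 712, 280, 147, 160, 237 and 200.4 RPKM. Their sum was lowest at P3, but the list was not uniform. Sncg, Nefl, Nefm and Slc17a6 were lowest at P3. Pou4f2 was lowest at P14 (3.09 RPKM), and Pou4f1, Rbpms and Isl2 at P28 (6.05, 6.93 and 1.48 RPKM). The list is dominated by Sncg, a synuclein, at 279 RPKM at E16.5, and by the light neurofilament Nefl at 155. The part of ganglion cell number in the course of Shh was not tested. Reference transcripts on the opposite strand cover 15.7% of the exon bases of Shh in the case of 9530036O11Rik, which was listed at 0.585 RPKM at E16.5 and 0.361 at P28, and no source used here gives the strand setting of the counting.

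The remaining ligands followed other courses. Dhh, known for its roles in Sertoli and Schwann cells, rose (slope 0.50 ± 0.07, limma adjusted p = 0.00233, and 0.995 with a pseudocount of 0.1). The values in age order were 0.142, 0.0623, 0.360, 0.997, 2.51 and 4.70 RPKM. It was thus below Shh up to P3, close to it at P7 and above it at P14 and P28, on the per-length RPKM scale. Pigment epithelium markers summed to 1.78 RPKM in the embryo, 11.7 at P14 and 23.2 at P28, 2 of 3 tested rose, and their part in the course of Dhh was not tested. The leading pigment epithelium markers were the hormone carrier Ttr, at 18.75 RPKM at P28, and the retinoid isomerase Rpe65, at 3.00. The list was not uniform, and most of its P28 sum was Ttr. Best1, which was not tested, had its highest value at P1 (0.692 RPKM) and its lowest at P28 (0.0724). Tyr, also not tested, was lowest at P1 (0.0120) and highest at P28 (0.381), without a steady course between. Mitf did not pass (slope 0.08, limma adjusted p = 0.215). Ihh, the ligand best known from growing bone, stayed between 0.0214 and 0.128 RPKM and was not tested.

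Ptch1 (gene ID 19206), the receptor that is also a hedgehog target, varied little from E16.5 to P28. The 6 libraries gave, in age order, 11.6, 9.72, 12.7, 10.6, 9.85 and 9.22 RPKM. The highest value, at P3, was 1.37 times the lowest, at P28. The slope was -0.05 ± 0.05 (limma adjusted p = 0.419), with a 95% interval of -0.16 to 0.06, and its sign turned under both rescalings of the libraries (0.01 and 0.03).

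Smo (gene ID 319757), the membrane protein that Patched holds in check, fell, with a lower value at each age up to P14. In age order Smo measured 19.6, 12.7, 11.6, 4.85, 2.20 and 2.26 RPKM (slope -0.59 ± 0.07, limma adjusted p = 0.00161). At P14 it was 8.90 times lower than in the embryo (95% counting interval 7.72 to 10.3). The ratio of Ptch1 to Smo on the RPKM scale was 0.593 at E16.5, 1.09 at P3 and 4.47 at P14, so Smo was the higher of the pair in the embryo and Ptch1 from P3 on.

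Coreceptors that bind hedgehog ligand beside Patched behaved unevenly. Gas1, a lipid-anchored coreceptor, was the most abundant of them and fell, with values in age order of 63.5, 59.3, 39.5, 13.3, 9.92 and 8.16 RPKM (slope -0.66 ± 0.08, limma adjusted p = 0.00170). Cdon, an immunoglobulin-family coreceptor, had its highest value at P3, 31.1 RPKM, against 16.2 in the embryo and 10.04 at P28 (slope -0.19, adjusted p = 0.208), and its slope passed as a fall without E16.5 (-0.37, adjusted p = 0.046) and was -0.08 without P28 (adjusted p = 0.675). Its relative Boc stayed at or below 0.923 RPKM and was not tested. Lrp2, an endocytic receptor, was at 0.477 RPKM at E16.5 and 2.09 at P14 (slope 0.17, adjusted p = 0.0840), and passed as a rise without P28 (adjusted p = 0.0141).

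The 3 Gli genes fell together, but from different starting points. Gli1 (gene ID 14632) was the most abundant at E16.5, at 29.7 RPKM, and the later libraries gave 15.2, 5.01, 0.234, 0.0685 and 0.684 (slope -0.9995 ± 0.17, limma adjusted p = 0.00354). At P14 it was 433 times lower than at E16.5 (95% counting interval 219 to 1005, from an estimated 8 against 1741 reads). Its largest ratio between neighbouring ages was from P3 to P7, where it became 21.4 times lower (14.1 to 34.8).

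Gli2 (gene ID 14633) gave 16.8, 9.65, 5.79, 1.12, 0.540 and 0.734 RPKM in age order (slope -0.77 ± 0.09, limma adjusted p = 0.00175). It was 31.1 times lower at P14 than at E16.5 (95% counting interval 25.5 to 38.4). Gli3 (gene ID 14634) was higher at P1 and P3 than in the embryo and gave 9.19, 16.4, 11.9, 2.59, 0.605 and 0.593 RPKM in age order (slope -0.73 ± 0.14, limma adjusted p = 0.00563). Its P1 value was 1.79 times that at E16.5 (1.65 to 1.93), whereas every other one of the 8 genes was lower at P1 than at E16.5. With ordinary least squares the fall of Gli3 was not called (adjusted p = 0.0533).

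The make-up of the Gli pool therefore differed between ages. Gli1 held 53.3% of the summed RPKM of the 3 genes in the embryo, then 36.8%, 22.05%, 5.95%, 5.65% and 34.0%. The share of Gli3 was 16.5% in the embryo, then 39.8%, 52.5%, 65.7%, 49.8% and 29.5%. The sum itself was 55.7, 41.2, 22.7, 3.94, 1.21 and 2.01 RPKM, so the late shares rest on low levels.

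**Figure D2:**
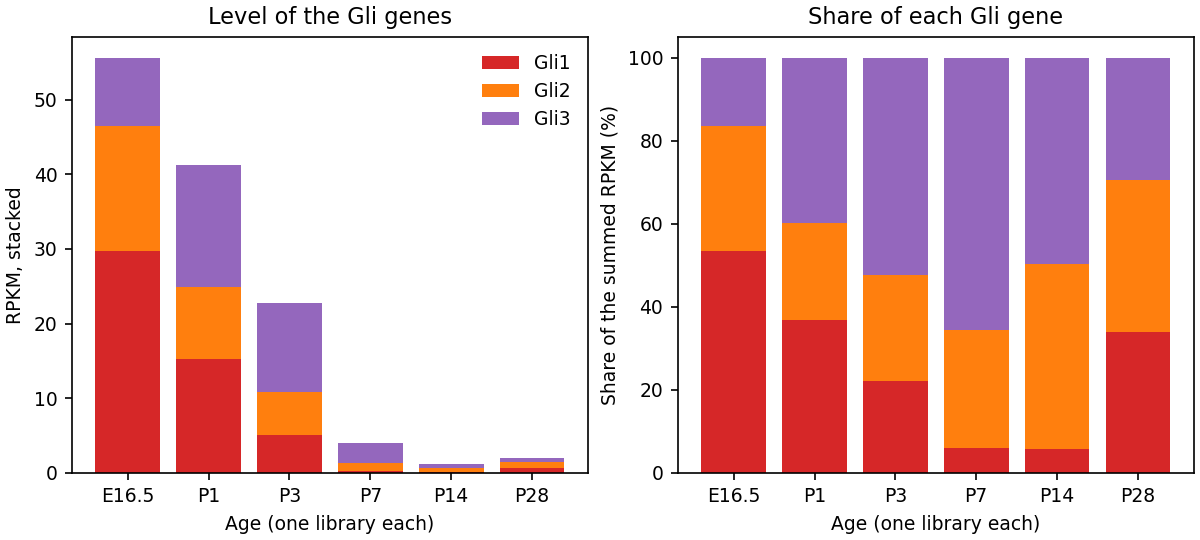
Left, stacked RPKM of Gli1, Gli2 and Gli3 at each age, 1 library per bar; right, the same as percent of their sum. The sum drops from 55.7 to 1.21 RPKM by P14, and the Gli1 share from 53.3% at E16.5 to 5.95% at P7 while the Gli3 share goes from 16.5% to 65.7%.

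The Gli genes share a zinc finger region, and the longest identical stretches of their reference transcripts are shown. They are 23 bases for Gli1 and Gli2, 14 for Gli1 and Gli3, and 25 for Gli2 and Gli3, all coding. Stretches alike but for mismatches were not measured, and no source used here gives the read length. The lengths therefore do not bound how many reads could be assigned to the wrong gene.
Gli1 and Gli2: gagaagccacacaagtgcacgtt
Gli1 and Gli3: gagaagccatacgt
Gli2 and Gli3: aagaaggagttcgtgtgccgctggc

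Hhip (gene ID 15245), a membrane-anchored decoy for hedgehog ligands and a target of the pathway, fell too. It measured 5.07, 4.16, 1.78, 0.330, 0.126 and 0.146 RPKM in age order (slope -0.56 ± 0.08, limma adjusted p = 0.00211, and -1.05 with a pseudocount of 0.1). It was 40.2 times lower at P14 than at E16.5 (95% counting interval 28.3 to 58.9). The known feedback targets thus parted on the RPKM scale: at P14 Hhip was at 2.49% of its E16.5 level, Gli1 at 0.231% and Ptch1 at 84.7%. The ratio of Gli1 to Ptch1 was 2.55, 1.56, 0.396, 0.0222, 0.00696 and 0.0742 in age order.

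Fgf15 (gene ID 14170) was the most abundant of the 8 genes before P7 and had the steepest slope. It ranked 47 among all genes of the E16.5 library, at 248 RPKM, and the later libraries gave 91.5, 16.9, 1.48, 0.307 and 7.03 (slope -1.32 ± 0.31, limma adjusted p = 0.0123). Each interval up to P14 brought a lower value, by 2.70 times (95% counting interval 2.57 to 2.84), 5.42 times (4.98 to 5.90), 11.4 times (8.77 to 14.9) and 4.83 times (2.77 to 8.99). The call was lost without E16.5 (adjusted p = 0.0944), with age in log2 days (0.0646) and with ordinary least squares (0.0846). Without P28 the slope was -2.04 (adjusted p = 0.00148). A reference transcript on the opposite strand, Gm26793, covers 24.9% of the exon bases of Fgf15, and reads of the pair cannot be told apart without strand.

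By interval, the 6 genes that fell were all lower between P3 and P7. Each was at least 1 unit of log2(RPKM + 1) lower at P7 than at P3, with the higher value at least 1 RPKM, a difference that 3.54% of all tested genes reached. Among the 8, Fgf15 alone reached it between E16.5 and P1 (background 2.23%), Fgf15 and Gli1 between P1 and P3 (background 3.52%), and Gli3 alone between P7 and P14 (background 2.4%). From E16.5 to P14 the same 6 were lower by that measure, against 19.7% of tested genes. Ptch1 and Shh did not reach it in any adjacent interval. Because of the added 1 RPKM, low genes can differ by more than the same ratio of RPKM without reaching it, as Fgf15 (4.83 times), Gli1 (3.42 times), Hhip (2.61 times), Smo (2.20 times) and Gli2 (2.07 times) did from P7 to P14, and Hhip (2.34 times) from P1 to P3.

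Markers of dividing and progenitor cells fell over the same ages. Cell cycle markers, of which 7 of 7 tested fell, summed in age order to 260, 405, 195, 18.6, 9.47 and 18.1 RPKM, led by the proliferation antigen Mki67 (181 RPKM at P1) and the cyclin Ccna2 (101). Progenitor markers, of which 8 of 9 fell, summed to 699, 465, 354, 266, 136 and 130.1 RPKM, with the homeobox gene Rax at 88.7 RPKM at E16.5. Cell cycle markers were thus higher at P1 than at E16.5, as Gli3 was, while Gli1, Gli2, Hhip, Smo and Fgf15 were lower. The part of progenitor number in these falls was not tested.

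Muller glia markers, of which 4 of 6 rose, summed to 132 RPKM in the embryo and 477 at P14. The highest at P14 were glutamine synthetase (Glul) at 219 RPKM and apolipoprotein E (Apoe) at 107. Glul was not among the 4, with 76.7 RPKM in the embryo and 31.0 at P7 (slope 0.35, limma adjusted p = 0.176), while Apoe rose. Astrocyte and optic nerve markers, of which 2 of 5 tested fell, summed to 34.2 RPKM in the embryo and 8.46 at P28, most of it Olig2, a factor that retinal progenitors also express, at 26.1 in the embryo, with myelin basic protein (Mbp) at 3.36. Endothelial and pericyte markers lay between 25.5 RPKM at P28 and 61.3 at P3, 1 of 6 tested rose, and the highest were Kdr (52.6 at P3), which progenitors also express, and Rgs5 (22.5 at P14). None of these lists was tested as a source of the transcripts described here.

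At P28 Fgf15 and Gli1 were higher than at P14, Fgf15 by 22.9 times (95% counting interval 13.7 to 40.9) and Gli1 by 9.97 times (4.62 to 25.1). On the log2(RPKM + 1) scale Fgf15 was 2.62 higher and reached the difference of 1 unit with a value of at least 1 RPKM, which 1.19% of tested genes did, whereas Gli1, below 1 RPKM at both ages, was 0.66 higher. Smo, Gli3 and Hhip differed by 1.03, 0.981 and 1.16 times, with intervals that include 1. A set of 39 genes was at 10 RPKM or more at E16.5 and at or below 1% of that at P14, Gli1 and Fgf15 among them. Their median P28 value was 2.67% of the E16.5 value (quartiles 2.33% to 3.31%), and 39 of 39 were above their P14 share, though low P14 values chose them. Fgf15, at 2.84%, lay within those quartiles and Gli1, at 2.30%, just below them. The E16.5, P1 and P28 libraries share a form of title that the other ages lack, and they also had the lower estimated depths. The part of the library in the P28 values was not tested.

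**Figure D3:**
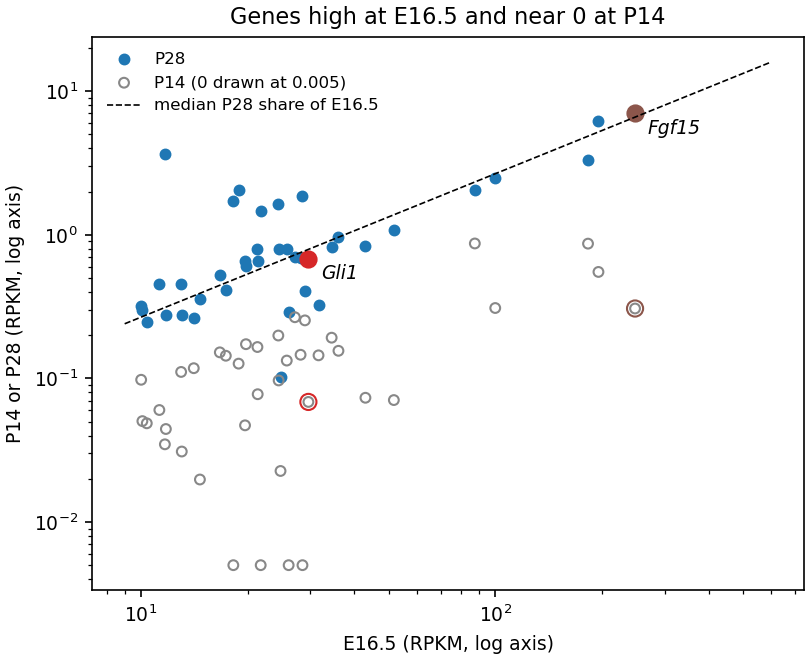
P28 (filled) and P14 (open) RPKM against E16.5 RPKM, log axes, for the 39 genes at 10 RPKM or more at E16.5 and at most 1% of that at P14, 1 point per gene and library. The dashed line marks the median P28 share of 2.67%, near which Fgf15 (2.84%) and Gli1 (2.30%) lie; P14 values of 0 are drawn at the floor named in the legend.

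Beyond the 8 genes, 25 other hedgehog pathway genes had a row and 21 were tested, of which 9 fell, 4 rose and 8 did not pass. Over all tested genes 29.9% fell and 15.2% rose. The median slope of the 21 was -0.11, against -0.06 over all tested genes. After Gas1 the lowest slope was that of Scube3, a secreted protein of the family that helps release hedgehog ligand, with 17.99 RPKM in the embryo, 8.55 at P7 and 1.37 at P28 (slope -0.56 ± 0.08, limma adjusted p = 0.00233). Also falling were Scube1, the kinesin Kif7, the ciliary receptor Gpr161, Tulp3, Evc and Evc2. Gpr161 and Tulp3 act at the primary cilium to restrain the pathway, Kif7 moves along the cilium with Gli proteins, and Evc and Evc2 act there with Smo. The calls of Scube1 (lost without any 1 of P1, P3, P7, P14 and P28, adjusted p from 0.0527 to 0.115), Tulp3 (without P1, P14 or P28, 0.0786 to 0.154, and under both rescalings, 0.0543 and 0.139) and Evc (without E16.5, P1 or P14, 0.0523 to 0.133) rest on single libraries. Scube1 and Evc also missed the threshold with age in log2 days (0.0592 and 0.0711), and Tulp3 and Evc with ordinary least squares (0.0902 and 0.0791). Scube1 reached 1 RPKM only at E16.5 (1.05), so that library alone admitted it to the test. It was therefore not tested without E16.5, nor under either rescaling.

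Among the genes that rose beside Dhh were the ubiquitin ligase adaptors Btrc (4.49 RPKM in the embryo and 11.9 at P14, slope 0.25 ± 0.06, limma adjusted p = 0.0140) and Spop (12.2 and 24.9 RPKM, slope 0.19 ± 0.05, adjusted p = 0.0156), which mark Gli proteins for processing or breakdown, and the ciliary GTPase Arl13b (5.09 and 9.42 RPKM, slope 0.21 ± 0.06, adjusted p = 0.0195). Btrc was not called without E16.5 (adjusted p = 0.0836), with age in log2 days (0.0591) or with ordinary least squares (0.0575), and Spop neither without E16.5 (0.0771) nor without P14 (0.0585). Arl13b was not called without P1 (0.0558), P14 (0.0666) or P28 (0.0534), or with ordinary least squares (0.0595). Without E16.5, as without P14, 2 genes of the list rose. Sufu, which binds and restrains Gli proteins, was at 7.94 RPKM in the embryo and 5.47 at P14 (slope -0.07, adjusted p = 0.276).

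**Figure D4:**
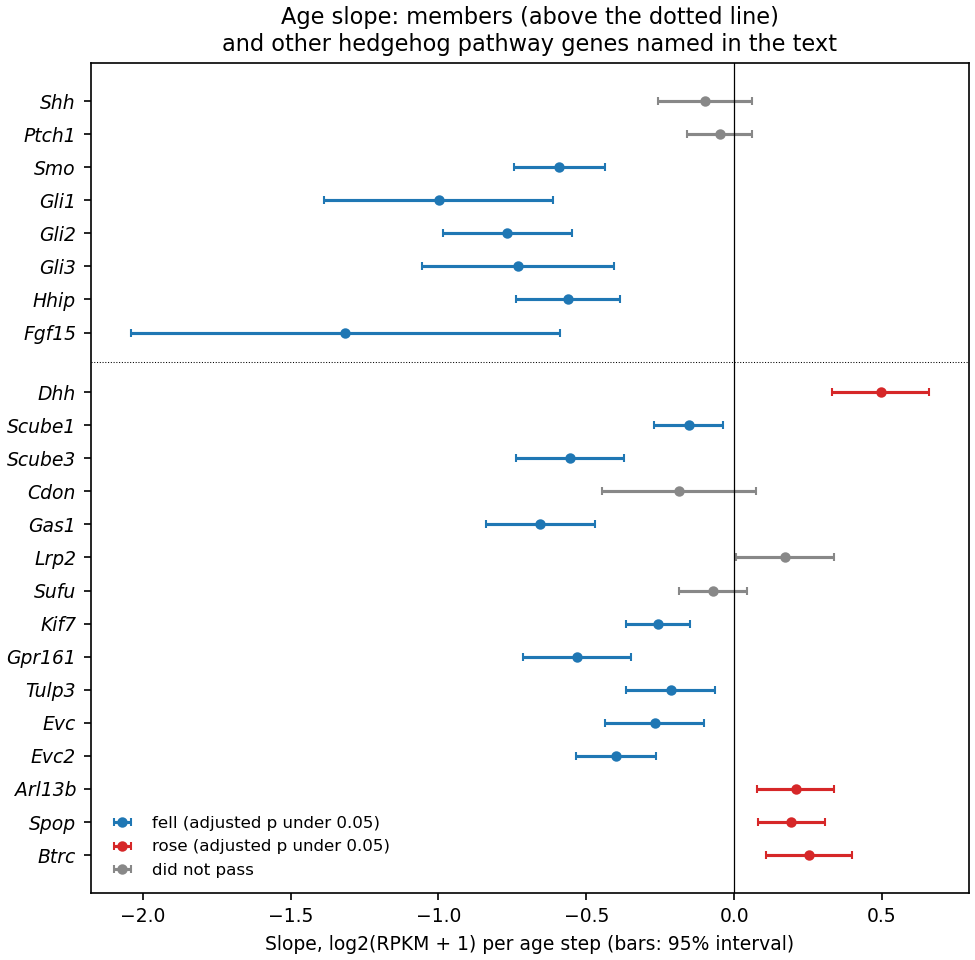
Slope over age order in log2(RPKM + 1) per step with its 95% interval, fitted with limma over 6 libraries, for the 8 genes above the dotted line and, below it, the other tested hedgehog pathway genes named in the text. Of the 8, 6 lie below 0 and 2 span it; below the line Dhh lies farthest to the right (0.50) and Gas1 farthest to the left (-0.66).

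Of 10 genes listed as possible hedgehog targets 9 were tested, 8 fell and 1 did not pass, with a median slope of -0.64. None of the 9 rose by limma, by an unadjusted p under 0.05 (0 genes) or by ordinary least squares (0 genes). Over all tested genes 29.9% fell and 15.2% rose, with a median slope of -0.06. Cell cycle and progenitor markers fell in a like share (7 of 7 and 8 of 9 tested), so the count is not particular to hedgehog targets. Among the possible targets, courses differed in steepness. The steepest were the cyclin Ccnd1 (558, 671, 386, 39.4, 5.77 and 13.7 RPKM in age order, slope -1.41 ± 0.23, limma adjusted p = 0.00352), the mitotic factor Foxm1 (slope -1.01) and the growth regulator Mycn (slope -0.76). The least steep were Bcl2 (slope -0.26), which blocks cell death, the cyclin Ccnd2 (-0.24) and the optic stalk factor Pax2 (-0.23). Bcl2 lost its call without E16.5 (adjusted p = 0.217), without P1 (0.0688), without P14 (0.0850), under both rescalings (0.0704 and 0.0720), without a filter (0.0602), with age in log2 days (0.105) and with ordinary least squares (0.105). Hes1 is on the progenitor marker list too, and Pax2 on the astrocyte list.

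In the Fgf pathway, 16 of 22 listed genes other than Fgf15 were tested, and 8 fell, 1 rose and 7 did not pass. Over all tested genes 29.9% fell and 15.2% rose. The median slope of the 16 was -0.20. The ligand Fgf3 fell, with 10.9 RPKM in the embryo, 2.53 at P1 and 0.471 at P3 (slope -0.54 ± 0.15, limma adjusted p = 0.0195), a call lost without E16.5 (slope -0.25, adjusted p = 0.141), with age in log2 days (0.0717) and with ordinary least squares (0.102). The ligand Fgf9 fell (16.4 RPKM at P1, 3.87 at P7, slope -0.42 ± 0.08), as did the phosphatase Dusp6, a feedback target of Fgf signalling (21.9 RPKM in the embryo, 4.46 at P28, slope -0.46 ± 0.07). The inhibitors Spry1 (slope -0.22) and Il17rd (-0.23) had the least steep falls, and Il17rd was not called without P1 (adjusted p = 0.0728), P14 (0.0909) or P28 (0.118), without a filter (0.0530), with a common total without the 50 highest genes (0.0828) or with ordinary least squares (0.0933). Fgf1 rose (0.169 RPKM in the embryo, 11.2 at P28, slope 0.69 ± 0.14, limma adjusted p = 0.00598), a call lost with ordinary least squares (0.0542), and its slope was 1.13 with a pseudocount of 0.1. Fgfr4 and its coreceptor Klb, which Fgf15 uses in liver, reached at most 0.733 and 0.192 RPKM and were not tested.

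For each gene the tested genes with the most similar course were found by the root mean square difference of log2(RPKM + 1) profiles after centring, over 6 libraries. Nearest to Fgf15 were Atoh7 (0.74 log2 units), the ganglion cell specification factor, and Foxn4 (0.75), a progenitor factor of amacrine and horizontal cells. Nearest to Gli1 were Ptf1a (0.25), the factor of amacrine and horizontal fate, and Fignl1 (0.26). Igf2bp1 (0.10), which binds RNA, and Ng23 (0.14) were nearest to Gli2, and 1700019G06Rik (0.12) and the protease gene Prss23 (0.15) to Gli3, with the same maximum at P1. Hhip lay nearest to Gm8675 (0.092) and the nuclease subunit Eme1 (0.097), and Smo to the lipid droplet gene Plin2 (0.085) and to Plekho1 (0.098).

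The genes with no called slope had close matches too, Lepre1 (0.028) and Tpmt (0.039) for Ptch1, and Cebpd (0.077) and Irs2 (0.083) for Shh. Within the 8, Smo and Hhip were closest to each other (0.31), while Shh and Ptch1 paired at 0.33. Fgf15 was closest to Gli1, at a distance of 0.93, and the ratio of Fgf15 to Gli1 stayed between 3.37 at P3 and 10.3 at P28 while their highest levels were 807 and 433 times their lowest. These distances describe shape only and were not tested.

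Promoters of 5 of the 8 genes (Gli2, Smo, Hhip, Gli3 and Ptch1) are in the RefSeq table of build GRCm38.p6, whereas the expression files use mm9. The letters of the Gli consensus, GACCACCCA, were searched on both strands from 250 bases before to 50 after the start, as was their core, ACCACCC, which lies within them. The whole consensus occurred in 0.253% of 32851 promoters and in none of the 5, and the core in 4.61% and in that of Gli2. There it lies 205 bases before the start, on the strand opposite to the gene, so it reads GGGTGGT along the gene. The 250 bases before the start are shown for Gli2, which holds the core, and for the targets that parted, Hhip and Ptch1, with the core in capitals. They lie at chr1:119053620-119053869 (minus strand), chr8:80058009-80058258 (minus) and chr13:63565736-63565985 (minus), are 67.2%, 76.0% and 78.4% G or C, and a match or its absence in this window describes letters only.
Gli2: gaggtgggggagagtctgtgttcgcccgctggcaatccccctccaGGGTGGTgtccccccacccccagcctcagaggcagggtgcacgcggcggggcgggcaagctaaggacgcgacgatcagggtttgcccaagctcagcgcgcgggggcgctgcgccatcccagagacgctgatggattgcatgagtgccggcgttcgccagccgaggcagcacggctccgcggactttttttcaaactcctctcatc
Hhip: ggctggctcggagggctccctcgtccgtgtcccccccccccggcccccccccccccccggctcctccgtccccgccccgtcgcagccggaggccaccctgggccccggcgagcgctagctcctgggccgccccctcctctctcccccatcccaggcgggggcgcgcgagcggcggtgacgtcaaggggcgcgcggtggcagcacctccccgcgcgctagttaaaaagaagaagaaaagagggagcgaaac
Ptch1: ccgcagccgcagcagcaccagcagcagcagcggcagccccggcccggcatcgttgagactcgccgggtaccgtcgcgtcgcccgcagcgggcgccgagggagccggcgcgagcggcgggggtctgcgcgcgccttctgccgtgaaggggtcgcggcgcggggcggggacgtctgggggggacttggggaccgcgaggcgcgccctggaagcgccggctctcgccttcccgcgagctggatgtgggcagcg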

How the data were processed

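Messenger RNA of whole retina was sequenced in 6 libraries, 1 per age. Per the labels' protocols, RNA was extracted with Trizol, purified on beads, copied into double-stranded cDNA, fragmented and built into libraries with a ChIP DNA kit. The build is mm9 and a tool named is bcl2fastq 2.17.1.14, per the submitters' processing notes; no source used here gives the aligner, counting tool, annotation or strand setting. RPKM per gene is the unit the authors deposited, per the file headers, and the number of unused sample columns was 0.

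Values were analysed as log2(RPKM + 1) for 15272 genes reaching 1 RPKM at some age. A linear slope over age order 1 to 6 was fitted with limma 3.58.1 in R 4.3.3 (eBayes with trend, two-sided, Benjamini-Hochberg adjustment over all tested genes, threshold 0.05), with 4 residual degrees of freedom, and checked on simulated data. Differences between ages have no test. Depth was estimated as the read total at which values under 0.3 RPKM, in genes that have 1 GENCODE M21 transcript length, become whole numbers of reads (67.2% to 71.5% of values within 0.05 of a whole read). That share was too low for a count test. Reads per gene use the longest coding reference transcript, and 95% intervals (Poisson for levels, exact binomial for ratios) cover counting error only.

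The members and lists were chosen with earlier results of these data known. Named were the 8 members, all other hedgehog ligands, receptors and coreceptors, the 3 lowest and 3 highest called slopes of each pathway list, the 2 most similar genes per member and the 2 highest markers per cell type list; other list genes named, and the genes next to the members, were chosen after their values were seen. Disp1, a listed pathway gene, was not analysed here, and a few genes that the rule selects are not reported here. Alternatives were another pseudocount (0.1), no filter, 2 rescalings, age in log2 days with birth at day 19, a covariate for how libraries were titled, ordinary least squares, and leaving out each library.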

Additional observations from a re-analysis of the deposited data

How the results depend on the processing

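Under 13 alternatives the 8 slopes kept direction and call in 98 of 104 checks. The exceptions were Fgf15 and Gli3, given with their results, and the sign of Ptch1, which turned to 0.0052 with median-of-ratios rescaling and to 0.031 with a common total without the 50 highest genes. Of the 8 genes between 4 and 6 fell. Over 46 list genes, 538 of 595 checks kept direction and call, 49 lost it, 4 gained it and 4 changed sign without a call. Scube1 had no check without E16.5 or under either rescaling, where it missed the filter. With a common total without the 50 highest genes 2668 of all tested genes fell and 3293 rose, against 4571 and 2326 as deposited, and with median-of-ratios rescaling 3396 and 3110. Leaving out 1 library gave 2953 (without P14) to 4247 that fell and 1538 (without P14) to 2179 that rose, and ordinary least squares 1487 that rose. Of the other hedgehog pathway genes 2 to 4 rose without 1 library and 2 with ordinary least squares. Of the Fgf pathway genes 5 fell with age in log2 days and 4 with ordinary least squares, where 0 rose, and 1 to 2 rose without 1 library (2 without P7) and 2 without a filter. The cause of these shifts was not tested. No paired analysis was possible because each age is a single library. With 1 library per age, no interval covers variation between mice, and below about 0.1 RPKM values rest on few reads, such as 8 for Gli1 at P14.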

Other observations

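Of the genes beside Fgf15, those tested fell with age, though by different courses. In the order of protein-coding genes of the reference assembly GRCm38.p6, the nearest on one side are Oraov1, now named LTO1, and then Ccnd1, and on the other side Fgf4 and then Fgf3, all on chromosome 7. Oraov1, whose human counterpart is amplified together with cyclin D1 in tumours, gave 42.7, 68.4, 43.3, 7.21, 2.67 and 3.94 RPKM from E16.5 to P28 (slope -0.88, limma adjusted p = 0.00510). Ccnd1 and Fgf3 fell too, while Fgf4, a ligand of early embryos, was listed at 0.0438 RPKM at E16.5 and at 0 at every later age. So 3 of the 4 neighbours of Fgf15 were tested and 3 fell, whereas of 28 neighbours of the other 7 genes 19 were tested, 4 fell and 3 rose. Over all tested genes 29.9% fell and 15.2% rose, and 3 genes are too few to set against that share. The call of Fgf3 was lost without E16.5, with age in log2 days and with ordinary least squares.

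The levels differed widely within this neighbourhood, with Ccnd1 at 558 RPKM, Fgf15 at 248 and Fgf3 at 10.9 at E16.5. Their courses differed as well, since between E16.5 and P1 Fgf15 and Fgf3 went to 91.5 and 2.53 RPKM, whereas Ccnd1 and Oraov1 were higher at P1, at 671 and 68.4. From P14 to P28 Fgf15 went from 0.307 to 7.03 RPKM and Fgf3 from 0.478 to 0.469. The neighbourhood was looked up after the values of Fgf15 were seen, and no test of neighbouring genes was made.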
